A study of Mus musculus with 6 samples.

Results

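The 10 genes described are known targets of canonical Wnt signalling, Axin2, Lef1, Tcf7, Cdx1, Sp5, T, Nkd1, Notum, Lgr5 and Rnf43. They were followed in mouse embryonic stem (ES) cells at 0, 3 and 6 h of acute DDX6 depletion. The genes were taken by symbol from the 55487 genes of the count table, each matched exactly 1 Ensembl gene, and all 10 were among the 15748 genes with enough counts to be tested. RNA-seq of polyA RNA was made from the D6AdP ES cell line, with 2 libraries at each of 3 times and 6 libraries in all. In all groups both Ddx6 alleles carried the AID degron and mCherry (DDX6-AID-mCherry/DDX6-AID-mCherry), 1 Dcp1a allele carried EGFP (DCP1a-EGFP/+) and the plant F-box protein was supplied by an OsTIR1-FLAG transgene. The 0 h group was taken before the auxin analog 5-Ph-IAA was added, and the 3 h and 6 h groups had received it at 500 nM for 3 h and 6 h. All groups grew on mitomycin C-treated fibroblast feeder cells in medium with CHIR99021, which inhibits GSK3, with PD0325901, which inhibits MEK, and with leukemia inhibiting factor. D6AdP is a single line, and no group lacked CHIR99021, the degron or OsTIR1, nor was one kept for 3 or 6 h without the analog. The dependence of the 10 genes on GSK3 inhibition was therefore not measured, and loss of DDX6 cannot be told apart from the analog itself or the hours in culture.

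In canonical Wnt signalling, GSK3 sits with AXIN and APC in a complex that marks β-catenin for destruction. When Wnt ligands or a drug such as CHIR99021 block GSK3, β-catenin accumulates, enters the nucleus and binds TCF and LEF factors, which switch their target genes from repression to activation. In mouse ES cells this input supports the naive pluripotent state, in part by relieving repression by TCF7L1, and it also turns on genes of the primitive streak. Many targets are themselves regulators of the pathway. AXIN2 rebuilds the destruction complex, NKD1 binds Dishevelled, NOTUM removes the lipid that Wnt ligands need for binding, and RNF43 removes Frizzled receptors from the cell surface. LGR5 is an R-spondin receptor that counters RNF43. LEF1 and TCF7 (also called TCF1) are DNA-binding partners of β-catenin, as are the TCF factors TCF7L1 and TCF7L2. SP5, CDX1 and T (Brachyury) are transcription factors of early development. DDX6, the depleted protein, is a DEAD-box helicase of P-bodies that acts in mRNA decapping and translational repression.

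RefSeq start-site windows, from 250 bases before a transcript start to 50 bases after it (build GRCm38), were found for 7 of the 10 genes and numbered 12. Windows for Cdx1, Notum and Lgr5 were not used here. They were searched on both strands for the TCF and LEF core CTTTG with the ending AA, AT, TA or TT. The 3 windows with a match are shown because these letters are the ones TCF and LEF factors are known to bind, and the Axin2 window is shown beside them because Axin2 is the target most used to report on the pathway. Capitals mark the matches, and each sequence runs 5′ to 3′ along its gene. Sp5 lies at chr2:70474673-70474972 on the plus strand, T at chr17:8434173-8434472 on the plus strand, the fourth Lef1 start at chr3:131156044-131156343 on the plus strand, and Axin2 at chr11:108920099-108920398 on the plus strand.
Sp5: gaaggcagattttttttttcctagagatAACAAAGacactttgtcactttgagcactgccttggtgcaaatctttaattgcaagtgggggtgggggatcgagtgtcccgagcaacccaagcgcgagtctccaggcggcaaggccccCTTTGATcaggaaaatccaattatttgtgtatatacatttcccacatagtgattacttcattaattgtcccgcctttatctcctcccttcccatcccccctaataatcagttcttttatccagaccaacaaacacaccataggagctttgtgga
T: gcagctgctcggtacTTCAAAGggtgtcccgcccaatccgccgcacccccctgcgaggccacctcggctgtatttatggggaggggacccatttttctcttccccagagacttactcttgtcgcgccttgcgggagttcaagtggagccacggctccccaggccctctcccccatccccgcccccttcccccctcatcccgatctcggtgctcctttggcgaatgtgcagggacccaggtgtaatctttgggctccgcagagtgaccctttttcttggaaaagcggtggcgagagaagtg
Lef1, start 4: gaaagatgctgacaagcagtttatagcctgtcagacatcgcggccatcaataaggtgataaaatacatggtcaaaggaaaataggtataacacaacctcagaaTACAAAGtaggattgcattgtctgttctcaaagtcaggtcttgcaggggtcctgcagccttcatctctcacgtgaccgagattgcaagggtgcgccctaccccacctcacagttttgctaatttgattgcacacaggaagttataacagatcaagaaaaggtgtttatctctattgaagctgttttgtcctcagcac
Axin2: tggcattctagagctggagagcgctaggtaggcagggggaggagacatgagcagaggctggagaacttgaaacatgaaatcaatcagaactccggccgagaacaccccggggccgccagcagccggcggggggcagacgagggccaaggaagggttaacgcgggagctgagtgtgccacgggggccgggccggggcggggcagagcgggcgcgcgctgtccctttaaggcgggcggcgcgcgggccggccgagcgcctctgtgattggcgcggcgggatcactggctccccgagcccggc

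The Sp5 window held 2 matches, AACAAAG (on the other strand) beginning 222 bases before the start and CTTTGAT beginning 104 bases before it. The T window held 1, TTCAAAG, 235 bases before the start, and the fourth of 4 Lef1 windows held 1, TACAAAG, 147 bases before an internal start. No match was found in the windows of Axin2, Tcf7, Nkd1, Rnf43 or the other 3 Lef1 starts. At least 1 match occurred in 16.9% of all 32851 windows, against 3 of 12 windows (25%) here. By gene, it occurred in 18.9% of the 27025 genes that have a window, against 3 of 7 genes here. The windows also differed in base composition. Axin2 had 70.0% G and C with 31 CpG dinucleotides, T 61.7% with 17, Sp5 45.0% with 6 and the fourth Lef1 start 43.7% with 5. Among properties of the transcripts, 9 of the 10 genes had a higher GC content than the median of the tested genes (median of the 10 genes 53.9%), and 5 of 10 had longer merged exons than the median gene. Axin2, Tcf7, Notum and Rnf43 lie on chromosome 11, which carries 7.78% of the tested genes.

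The libraries held 16357142 to 21846959 counts, so 3 counts stood for 0.139 to 0.181 CPM, the counts of a gene scaled to a common library size with TMM factors. Replicates of a time correlated at r = 0.994 to 0.996 in log2 CPM across genes and were not the same library deposited again, since their spread exceeded that of counting alone (chi-square/df 1.97 to 6.46). Ddx6 mRNA lay between 247.1 and 271.4 CPM in the 6 libraries and was not called in any comparison. The degron acts on the protein, so this level does not check the depletion. All 10 defining ES cell markers and all 18 feeder fibroblast markers were detected in every library, so the RNA came from both cell types. In such bulk RNA, fewer cells of a type and less RNA per cell cannot be told apart. Whether replicates stem from separate cultures is not stated in the labels, so the spread between libraries may be technical alone. Each p-value rests on that spread, which the fit moderated with the spread of all tested genes (median prior degrees of freedom 13.5).

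Per length, the 10 genes spanned about 2 orders of magnitude before treatment. In CPM per kilobase of merged exons, the 0 h means were 39.2 ± 2.10 for Cdx1 and 35.8 ± 1.76 for Notum (SD, n = 2). Tcf7 followed at 21.9 ± 0.392, Axin2 at 19.7 ± 1.24 and Sp5 at 15.7 ± 0.961. These 5 formed an upper tier, well apart from the rest. Lef1 measured 3.36 ± 0.0329, T 2.15 ± 0.259 and Lgr5 1.82 ± 0.0459. Nkd1 (0.502 ± 0.0776) and Rnf43 (0.342 ± 0.0258) were lowest, with 28 to 51 reads in each library. The order changed little with time. Notum passed Cdx1 at 3 and 6 h (41.4 and 43.0 against 33.8 and 30.7), and Lgr5 passed T. At 0 and 3 h no pair of neighbours in the order overlapped in its 2 libraries, and at 6 h Sp5 (15.6) and Axin2 (15.2) did.

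**Figure D1:**
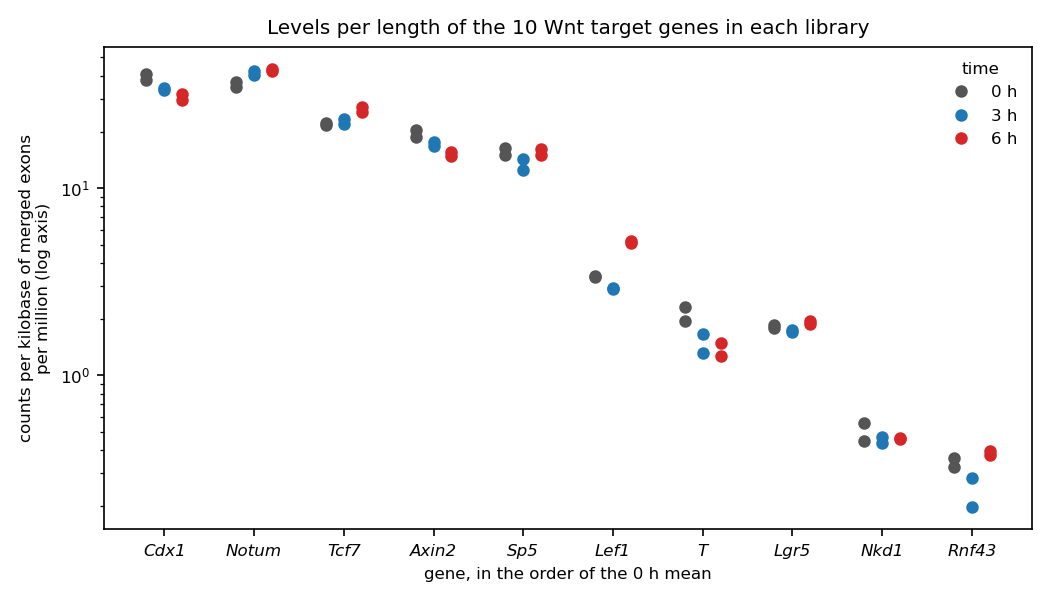
CPM per kilobase of merged exons (log axis) for the 10 Wnt target genes, ordered by their 0 h mean, with 1 point per library and colours for 0, 3 and 6 h. Cdx1, Notum, Tcf7, Axin2 and Sp5 lie between 12.5 and 43.4 in every library, and Nkd1 and Rnf43 lie below 0.56.

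At 3 h none of the 10 genes was called changed, against 0.184% of all tested genes (edgeR quasi-likelihood test, Benjamini-Hochberg adjusted p under 0.05). Limma voom called none either, nor did DESeq2, which gave no adjusted p for T, Nkd1 and Rnf43. With no low-count filter Axin2, Cdx1 and Notum were called, while calls over all genes went from 29 to 234. With only the 4 libraries of the comparison in the fit Notum was called, among 82 genes in all. The median log2 fold change of the 10 genes was -0.20, whereas the median over all tested genes was -0.001, and 8 of the 10 had a negative value. At an unadjusted p under 0.05 there were 7 genes, 6 of them with lower values and Notum with a higher one, beside 10.8% of all tested genes. The CPM ranges of the 0 h and 3 h libraries did not overlap for 8 of the 10, as for 42.3% of all tested genes. The nearest to a call was Notum, with a log2 fold change of 0.21 ± 0.04 (SE, adjusted p = 0.0689), followed by Axin2 at -0.19 ± 0.05 (adjusted p = 0.134) and Cdx1 at -0.21 ± 0.05 (adjusted p = 0.139). Lef1 had -0.21 ± 0.06, Sp5 -0.23 ± 0.07, T -0.53 ± 0.17 and Rnf43 -0.52 ± 0.22, with adjusted p from 0.202 to 0.412. Without replicate 2 of 3 h Sp5 had -0.13 and Rnf43 -0.29, and without replicate 1 of 3 h Rnf43 had -0.79. Notum was called at 0.26 without replicate 2 of 0 h (adjusted p = 0.00889), and at 0.21 without replicate 1 or 2 of 6 h (adjusted p = 0.0318 and 0.0332). Cdx1 was called at -0.27 without replicate 2 of 0 h (adjusted p = 0.0152).

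Feeder fibroblast markers had values in the same direction over this interval. All 18 had a negative log2 fold change at 3 h (median -0.12), 12 of them at an unadjusted p under 0.05 and none called. Summed over the list, CPM ranged from 17360 to 18870 before the analog, from 16690 to 16940 after 3 h and from 16980 to 18790 after 6 h, and none of the 18 was at 0 counts in any library. In a fit that also holds the mean level of these markers in each library, the 3 h log2 fold changes were -0.27 for Axin2, -0.17 for Lef1, -0.10 for Sp5, -0.06 for Cdx1, -0.26 for T, -0.71 for Rnf43 and 0.11 for Notum, and none of the 10 genes was called. Mean log2 CPM of these markers was 8.07 and 7.97 at 0 h, and 7.88 and 7.90 at 3 h. The covariate thus moved together with the time, and this fit cannot separate the 2. Its values are not levels corrected for feeder RNA. The part of feeder RNA in the level of each gene was not tested.

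At 6 h the 10 genes had diverged. This comparison shares its 0 h libraries with the preceding one, so values of the 2 are set side by side and not counted as separate support. Lef1, Tcf7 and Notum rose above 0 h, and Axin2, Cdx1 and T fell, while Sp5, Nkd1, Lgr5 and Rnf43 were not called. Thus 6 of 10 were called, beside 22.2% of all tested genes, with 3 higher (9.92% of all) and 3 lower (12.3% of all). The median over the 10 genes was 0.03, and that over all tested genes 0.002. The summed CPM of the 10 genes stayed between 384.6 and 418.1 in all 6 libraries. The CPM ranges of 0 h and 6 h did not overlap for 8 of the 10 genes, as for 59.5% of all tested genes.

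Both DNA-binding partners of β-catenin among the 10 genes were higher at 6 h. Lef1 (ENSMUSG00000027985, chromosome 3, 131110471 to 131224356, plus strand) had 29.8 and 29.4 CPM before the analog, 25.3 and 25.8 after 3 h of it, and 45.8 and 44.8 after 6 h. The 6 h libraries thus lay above all others and the 3 h libraries below them. Lef1 rose 1.53-fold against 0 h (log2 fold change 0.62 ± 0.06, adjusted p = 1.19e-06). It was called in all 15 alternative analyses, with values from 0.61 to 0.65. Exons of Lef1 share 13.8% of their length with Gm43352 on the opposite strand, which had 1 to 6 counts per library beside 535 to 834 for Lef1. Tcf7 (ENSMUSG00000000782, chromosome 11, 52252371 to 52283014, minus strand) had 56.9 and 58.3 CPM before the analog, 61.9 and 58.0 after 3 h of it, and 67.3 and 71.4 after 6 h. Its 0 h and 3 h libraries overlapped, and both 6 h libraries lay above them. Tcf7 rose by 20.5% (0.27 ± 0.05, adjusted p = 0.00122), and this rise was called in all 15 alternatives.

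Notum, which encodes the secreted enzyme that inactivates Wnt ligands, was the only other gene of the 10 called higher at 6 h than at 0 h. Notum (ENSMUSG00000042988, chromosome 11, 120653788 to 120661175, minus strand) had 83.3 and 89.3 CPM before the analog, 102.0 and 97.6 after 3 h of it, and 102.3 and 104.6 after 6 h. Both treated times lay above 0 h and differed little from each other. The 6 h change was a rise of 19.8% (0.26 ± 0.04, adjusted p = 0.000499), called in all 15 alternatives. Exons of Notum share 38.1% of their length with the opposite-strand genes Notumos and Myadml2os, and the strand setting of the counting is not given in the sources used here. Notumos, with 30 to 65 counts per library beside 1607 to 2157 for Notum, rose as well at 6 h (1.99-fold, adjusted p = 0.00210), and reads of these genes cannot be told apart with certainty.

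Axin2, the negative-feedback scaffold, was lower at 6 h than at 0 h, with 3 h between. Axin2 (ENSMUSG00000000142, chromosome 11, 108920349 to 108950783, plus strand) had 103.5 and 113.2 CPM before the analog, 97.4 and 92.7 after 3 h of it, and 85.6 and 81.9 after 6 h. No library of a later time reached one of an earlier time. At 6 h the level was 22.9% below 0 h, a change of -0.37 ± 0.05 (adjusted p = 3.81e-05) that all 15 alternatives called. Exons of Axin2 share 3.80% of their length with Gm11670, which had at most 2 counts in a library.

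Cdx1, a caudal-type homeobox gene, and T, the T-box factor of the primitive streak, also fell. Cdx1 (ENSMUSG00000024619, chromosome 18, 61018862 to 61036199, minus strand) had 71.2 and 66.0 CPM before the analog, 58.5 and 59.9 after 3 h of it, and 55.8 and 51.6 after 6 h. Its 3 times did not overlap, and the 6 h change was -0.35 ± 0.05 (adjusted p = 0.000195), called in all 15 alternatives. From 3 to 6 h Cdx1 was not called (-0.14 ± 0.05, adjusted p = 0.0731), but it was in 5 of 15 alternatives. These were no low-count filter (-0.15), 4 libraries in the fit (-0.14) and the replicate block (-0.14). The others were the fit without replicate 1 of 0 h (-0.14) and the feeder-marker covariate (-0.28, adjusted p = 0.0116). T (ENSMUSG00000062327, chromosome 17, 8434423 to 8442496, plus strand) was far less abundant, with 104 and 98 reads before the analog, 81 and 66 after 3 h of it, and 57 and 55 after 6 h. In CPM these were 5.39 and 4.54, then 3.83 and 3.05, then 3.44 and 2.95. Both treated times lay below 0 h and overlapped each other. The 6 h change of T, -0.64 ± 0.18 (adjusted p = 0.0159), had the largest size of the 3 falls and the least support. It was not called without replicate 1 of 0 h (-0.51, adjusted p = 0.105), without replicate 2 of 6 h (-0.52, adjusted p = 0.120) or by DESeq2 (-0.64, adjusted p = 0.157).

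**Figure D2:**
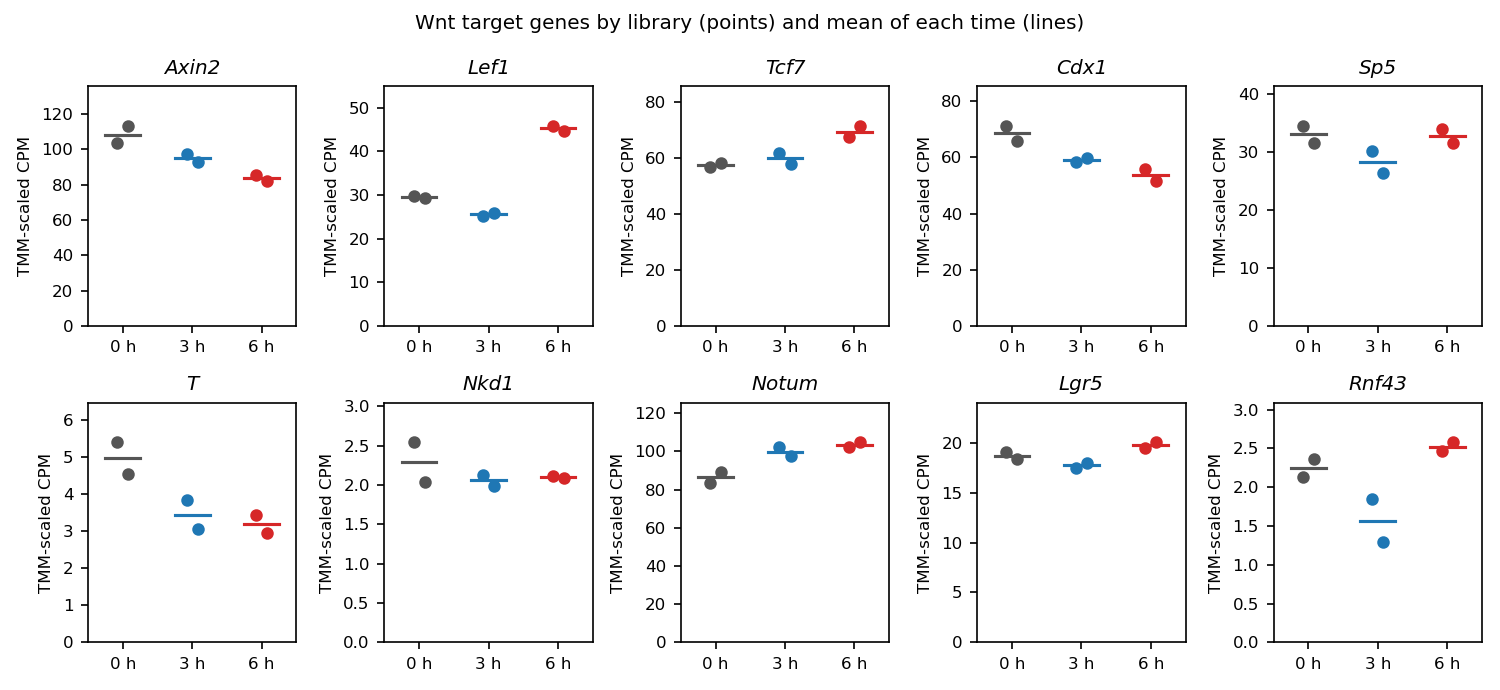
TMM-scaled CPM of each Wnt target gene (linear axes that start at 0, 1 panel per gene) in the 2 libraries of 0, 3 and 6 h, with lines at the means. Lef1 dips to 25.6 at 3 h and reaches 45.3 at 6 h, Tcf7 and Notum end higher than at 0 h, and Axin2, Cdx1 and T end lower.

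From 3 to 6 h Lef1, Tcf7 and Rnf43 rose and Axin2 fell. Of the 10 genes 4 were called, beside 21.4% of all tested genes, with 3 higher (9.71% of all) and 1 lower (11.7% of all). The median log2 fold change of the 10 genes was 0.10 and that of all tested genes 0.005. The CPM ranges of 3 h and 6 h did not overlap for 8 of the 10, as for 60.8% of all tested genes. Lef1 rose 1.77-fold between the treated times (0.83 ± 0.06, adjusted p = 9.76e-08), ranked 15 by p-value among the tested genes, and was called in all 15 alternatives. Its lower level at 3 h was not called in any of them. Tcf7 rose by 0.21 ± 0.05 (adjusted p = 0.00686), a call lost without replicate 2 of 3 h and without replicate 2 of 6 h (0.17 for both, adjusted p = 0.0992 and 0.0699) and with DESeq2 (adjusted p = 0.0736). Axin2 fell further, by 0.18 on the log2 scale (SE 0.05, adjusted p = 0.0131). That call was lost without replicate 1 of 3 h (-0.14, adjusted p = 0.142), without replicate 2 of 6 h (-0.15, adjusted p = 0.0953), with DESeq2 (-0.19, adjusted p = 0.0664) and with the feeder-marker covariate (-0.11, adjusted p = 0.327).

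Among the receptor-level regulators, Rnf43 was low and was called only from 3 to 6 h, and Lgr5 was not called in any comparison. Rnf43, the ubiquitin ligase that clears Frizzled (ENSMUSG00000034177, chromosome 11, 87662722 to 87735539, plus strand), had 2.13 and 2.36 CPM before the analog, 1.85 and 1.30 after 3 h of it, and 2.47 and 2.58 after 6 h. Its 3 h libraries lay below all others, and the 6 h libraries just above those of 0 h. The step from 3 to 6 h, 0.69 ± 0.23 (adjusted p = 0.0391), rested on 39 and 28 reads at 3 h. It was 0.46 without replicate 2 of 3 h (adjusted p = 0.285), 0.72 and 0.66 without replicate 1 or 2 of 6 h (adjusted p = 0.104 and 0.145), 0.68 with DESeq2 (adjusted p = 0.302) and 0.87 with the feeder-marker covariate (adjusted p = 0.130), and none of these was a call. Against 0 h the 6 h value of Rnf43 was 0.17 ± 0.21 (adjusted p = 0.624). Lgr5 (ENSMUSG00000020140, chromosome 10, 115450311 to 115587780, minus strand) had 19.0 and 18.4 CPM before the analog, 17.5 and 18.0 after 3 h of it, and 19.4 and 20.0 after 6 h. These small steps left no overlap between the times, yet none was called (log2 fold changes -0.08, 0.08 and 0.16 for the 3 comparisons, adjusted p = 0.763, 0.487 and 0.153), nor in any alternative.

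Sp5, a transcription factor gene that β-catenin is known to activate directly, and Nkd1 were not called at 6 h against 0 h. Sp5 (ENSMUSG00000075304, chromosome 2, 70474923 to 70477729, plus strand), whose start window held 2 of the motif matches shown above, had 34.5 and 31.6 CPM before the analog, 30.1 and 26.3 after 3 h of it, and 33.9 and 31.6 after 6 h. The 3 h libraries were the lowest, and those of 0 and 6 h overlapped. The 6 h value against 0 h was -0.01 ± 0.07 (adjusted p = 0.918), and the step from 3 to 6 h, 0.21 ± 0.07, narrowly missed the threshold (adjusted p = 0.05004). That step was called in 8 of 15 alternatives, with values from 0.09 to 0.32 over all 15. It was called without replicate 1 or 2 of 0 h (0.21 and 0.22, adjusted p = 0.0276 and 0.0235) and without replicate 1 of 3 h (0.32, adjusted p = 0.0275). It was not called without replicate 2 of 3 h (0.12, adjusted p = 0.379), without replicate 1 or 2 of 6 h (0.17 and 0.27, adjusted p = 0.240 and 0.0553), with DESeq2 (0.21, adjusted p = 0.252) or with the feeder-marker covariate (0.09, adjusted p = 0.657). Nkd1, a Dishevelled-binding antagonist (ENSMUSG00000031661, chromosome 8, 88521354 to 88594884, plus strand), had 2.54 and 2.04 CPM before the analog, 2.13 and 1.99 after 3 h of it, and 2.11 and 2.09 after 6 h. All its times overlapped, and with 35 to 49 reads in a library it was not called in any comparison (log2 fold change -0.12 ± 0.21 at 6 h, adjusted p = 0.757).

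**Figure D3:**
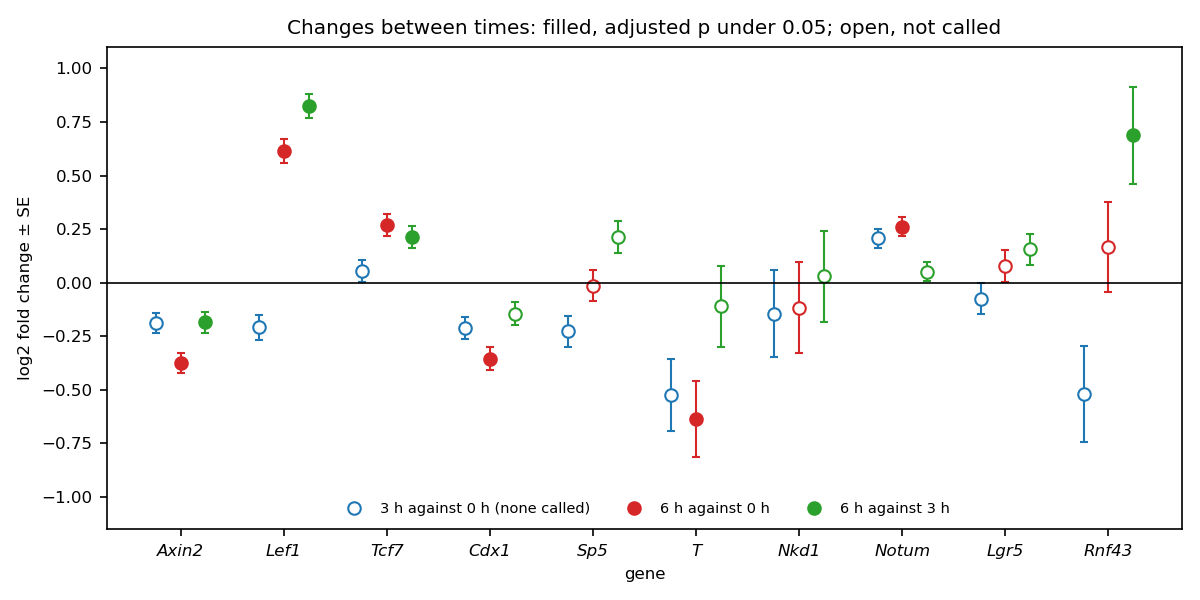
Fitted log2 fold changes of the 10 Wnt target genes in the 3 comparisons (points, with bars of 1 SE either side), filled where the adjusted p was under 0.05. No point of 3 h against 0 h is filled, 6 are filled for 6 h against 0 h and 4 for 6 h against 3 h.

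Genes with the most similar course were sought by the distance between centred log2 CPM values over the 6 libraries, among tested genes whose log2 CPM averaged 1 or more. Neighbours were picked on these same libraries, so a shared course follows from the choice and is no separate support. The nearest to Axin2 was Cnnm2, at a distance of 0.0597, which fell by 0.38 at 6 h (adjusted p = 0.000403), followed by Gem (0.0714) and Lcp1 (0.0715). Those nearest to Lef1 were Tor4a (0.136), Proser3 (0.152) and Plxdc1 (0.185), with 6 h values against 0 h of 0.68, 0.59 and 0.58. The smallest of these distances was that of Tcf7 to Rnf213, at 0.0214 (0.26 at 6 h), then the tight junction gene Tjp1 (0.0345) and Lrch1 (0.0357). Cdx1 ran nearest to Map6 (0.0455), Lin28a (0.0627) and Lnx2 (0.0737), and Notum to Tlcd1 (0.0711), Gpam (0.0723) and Slc45a4 (0.0740). Lin28a, an RNA-binding protein of pluripotent cells, fell by 0.31 at 6 h (adjusted p = 0.000149). The low-count genes had looser matches, T with Icosl (0.161), Nrcam (0.243) and Tnfsf15 (0.248), and Rnf43 with Naprt (0.149), Il1rn (0.230) and Ston1 (0.281). Icosl is also among the genes called at 3 h (-0.64, adjusted p = 0.0296). The search was made for the 7 genes called in at least 1 comparison, and the 10 genes themselves were left out as possible neighbours.

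The rest of the pathway was counted in lists, 138 genes in all, of which 116 were tested. At 6 h against 0 h, 15 of them rose and 23 fell, beside 9.92% and 12.3% of all tested genes. The median log2 fold change was 0.00, and 0.002 for all tested genes. At 3 h 1 was called, beside 0.184% of all tested genes. It was Myc, a growth regulator and known Wnt target (-0.31, adjusted p = 0.0437). Between 3 and 6 h 19 rose and 26 fell, beside 9.71% and 11.7% of all. No pathway gene was called at 3 h by DESeq2 or with the feeder-marker covariate. With limma voom 2 were called, with no low-count filter 3, with 4 libraries in the fit 3 and with the replicate block 4. Calls over all genes were 30, 234, 82 and 262 in these, beside 29 in the main fit. Leaving out 1 library lowered the count in some fits and raised it in others. From 3 to 6 h the 45 calls became 25 and 27 without replicate 1 or 2 of 3 h, and 22 with the feeder-marker covariate.

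Upstream, 11 of 19 Wnt ligand genes had enough counts to be tested, and 2 of the 11 were called at 6 h, beside the 22.2% of all tested genes. At 6 h Wnt9a (-0.62, adjusted p = 0.0155) and Wnt5b (-0.41, adjusted p = 0.0276) fell and none rose, and Wnt5a rose only between 3 and 6 h, by 0.32 (adjusted p = 0.00375). Of 5 tested genes of Wnt secretion and R-spondins none was called at 6 h against 0 h by edgeR (also 0 at an unadjusted p under 0.05), and Rspo2, a ligand of LGR5, rose between 3 and 6 h by 0.62 (adjusted p = 0.0215). Of 18 receptors and surface regulators 4 rose and 3 fell at 6 h, beside 9.92% and 12.3% of all tested genes. The non-canonical receptor gene Ror2 rose from 44.2 to 59.4 CPM (0.42, adjusted p = 1.57e-05) and the coreceptor gene Lrp5 by 0.24, whereas the Frizzled genes Fzd5 (-0.32, adjusted p = 2.33e-05) and Fzd10 (-0.24) fell. Ror1 rose between 3 and 6 h only (0.58, adjusted p = 0.0110). All 18 feeder markers also had a positive value from 3 to 6 h (median 0.11). Mean CPM in order of time was 29.2, 25.2 and 31.5 for Wnt5a and 4.93, 3.88 and 5.81 for Ror1. The part of feeder RNA in the levels of Wnt5a, Rspo2, Ror1 and Ror2 was not tested. Of 15 tested inhibitors 1 rose and 1 fell at 6 h (9.92% and 12.3% of all). Shisa2, which retains Frizzled in the endoplasmic reticulum, fell from 10.3 to 5.82 CPM (-0.82, adjusted p = 0.000310), and Trabd2b, a protease that cleaves Wnt ligands, rose from 2.41 to 4.38 CPM (0.85, adjusted p = 0.00225). Kremen1, a DKK receptor, rose by 0.16 between 3 and 6 h (adjusted p = 0.0452).

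Inside the cell the changes were small and ran both ways. Of 17 transducers 2 rose and 2 fell at 6 h, beside 9.92% and 12.3% of all tested genes. The casein kinase genes parted, Csnk1e rising by 0.26 (adjusted p = 0.000802) and Csnk1d falling by 0.18 (adjusted p = 0.00199). Gsk3b, which encodes a GSK3 kinase, fell from 130.4 to 116.5 CPM (-0.16, adjusted p = 0.00676). Btrc, the substrate-binding part of the ligase that ubiquitinates β-catenin, rose by 0.24. Dvl2, a Dishevelled gene, fell between 3 and 6 h (-0.19, adjusted p = 0.0127). Ctnnb1, which encodes β-catenin and was named after its value was seen, had mean CPM of 672.4, 672.0 and 647.8 in order of time and was not called (-0.05, adjusted p = 0.255 at 6 h). Of 17 tested nuclear effectors 3 rose and 3 fell at 6 h (9.92% and 12.3% of all). The coactivator genes Bcl9 (0.33, adjusted p = 0.000440) and Pygo1 (0.52, adjusted p = 0.0107) rose, while Pygo2 (-0.20), the corepressor gene Ctbp2 (-0.22) and the acetyltransferase gene Ep300 (-0.22) fell. Tcf7l1 and Tcf7l2, the TCF factors outside the 10 genes, were not called at 6 h (0.06 and -0.13, adjusted p = 0.373 and 0.168), and they were named after their values were seen.

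Of 19 other known Wnt targets tested, 7 fell and 2 rose at 6 h, beside 12.3% and 9.92% of all tested genes. Their median log2 fold change was -0.10, and that of all tested genes 0.002. Id2, an inhibitor of basic helix-loop-helix factors, fell from 28.9 to 15.6 CPM (-0.89, adjusted p = 9.39e-07), Gbx2 by 0.60, Tbx3 by 0.33, Myc by 0.29 and Sall4 by 0.24. These 5 were named for the smallest adjusted p in any comparison, and the 2 genes that rose were not among them. Each of the 5 had its lowest mean at 6 h except Myc, which was as low at 3 h (36.5 CPM at 3 h, 36.9 at 6 h). Of 5 naive pluripotency factors that TCF7L1 is known to repress, Esrrb (-0.42, adjusted p = 3.93e-07), Nr5a2 (-0.40) and Tfcp2l1 (-0.30) fell at 6 h, Nanog rose (0.13, adjusted p = 0.00757), and Klf2 fell between 3 and 6 h only (-0.14, adjusted p = 0.0122). Of 9 tested primitive streak genes 2 fell and 2 rose at 6 h (12.3% and 9.92% of all). Evx1, a homeobox gene of the posterior streak, fell with T (-0.92, adjusted p = 0.00203), and Fgf4 by 0.15, while Eomes (0.35, adjusted p = 0.00169) and Fgf17 (0.36) rose.

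**Figure D4:**
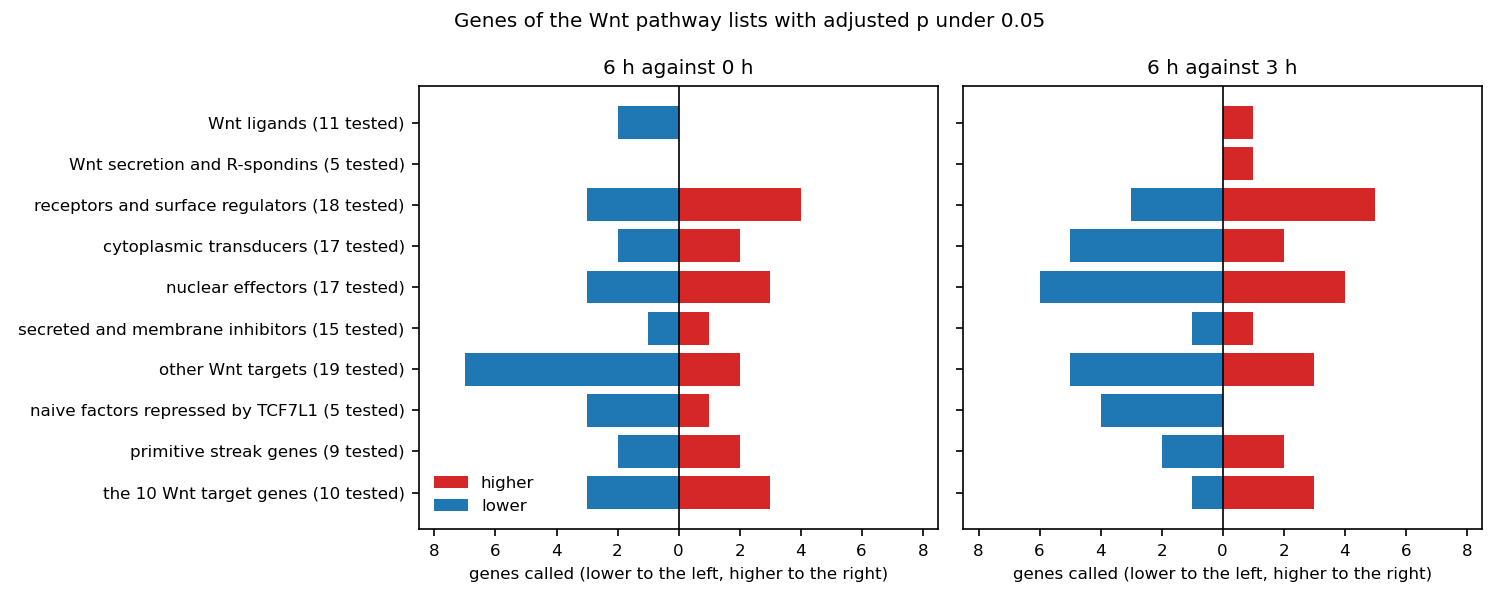
Genes called at an adjusted p under 0.05 in each list of Wnt pathway genes and among the 10 Wnt target genes, lower to the left and higher to the right, for 6 h against 0 h and 6 h against 3 h. Other Wnt targets have 7 lower and 2 higher genes at 6 h against 0 h, and the 10 genes have 3 of each. Over all tested genes 12.3% were lower and 9.92% higher in that comparison.

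Markers of the cell types in the wells gave the setting for these values. Of 10 ES cell markers 5 fell and 2 rose at 6 h, beside 12.3% and 9.92% of all tested genes. Their median was -0.11, with a summed level of 3949 and 4106 CPM at 6 h against 4299 and 4465 at 0 h. Sall4 and Esrrb belong both to these markers and to the lists above. Feeder markers had a median of -0.01 at 6 h with 1 of 18 higher (9.92% of all tested genes). From 3 to 6 h all 18 had a positive value (median 0.11) and 5 were called higher (9.71% of all). Among the 10 genes, Lef1, Sp5, Nkd1, Lgr5 and Rnf43 had a negative value at 3 h and a positive one from 3 to 6 h. Axin2, Cdx1 and T had negative values in both steps, and Tcf7 and Notum positive ones. With the feeder-marker covariate the step of Lef1 from 3 to 6 h was 0.79. A link of these courses to feeder RNA was not tested. In the fit with the feeder-marker covariate the 6 genes called at 6 h against 0 h were called again. Their values were 0.62 for Lef1, 0.26 for Tcf7 and Notum, -0.38 for Axin2, -0.34 for Cdx1 and -0.62 for T. Mean log2 CPM of the feeder markers was 8.07 and 7.97 at 0 h, and 8.07 and 7.97 at 6 h. The covariate could therefore hardly move this comparison, which gives no check on the part of feeder RNA. In the comparisons with 3 h the covariate moved together with the time, so that fit gives no check there either. Primitive endoderm markers were low, with a summed level of 381.2 to 454.9 CPM, and 2 of 6 tested fell at 6 h (12.3% of all).

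**Figure D5:**
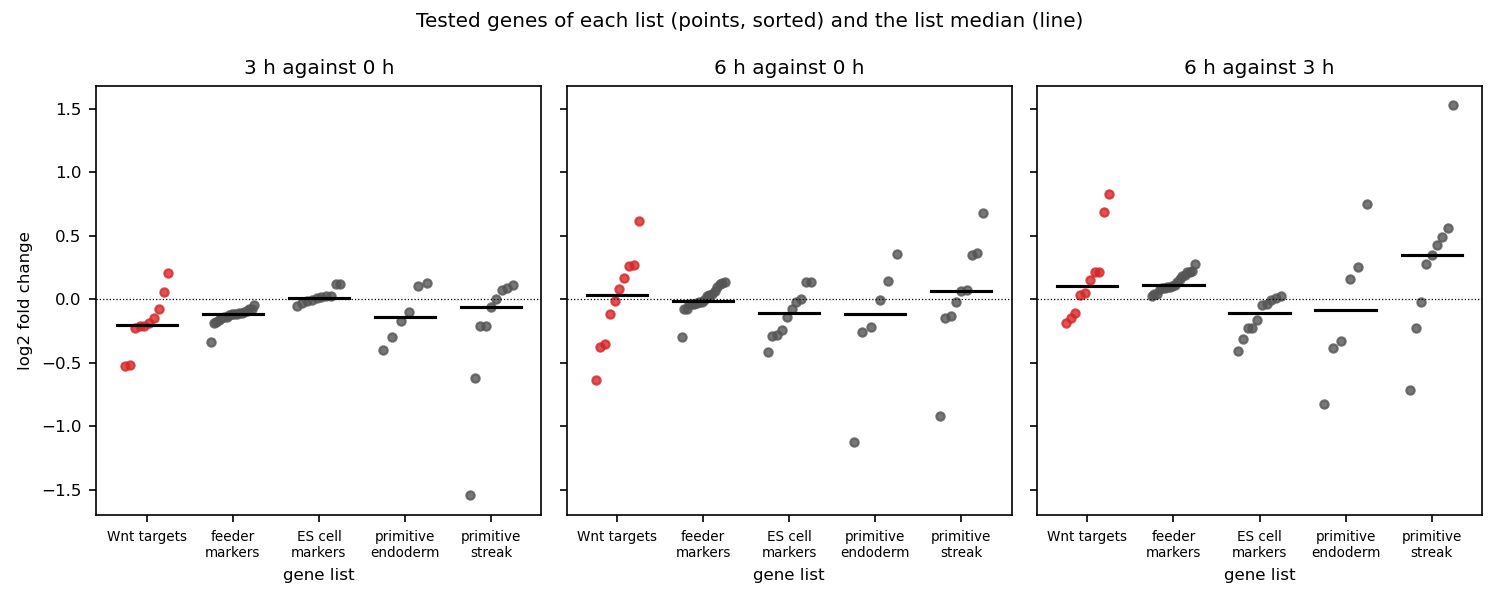
Fitted log2 fold changes of the tested genes of each list (10 Wnt targets, feeder, ES cell and primitive endoderm markers, and primitive streak genes, as points sorted within a list) with list medians (lines), for the 3 comparisons. At 3 h the 10 Wnt target genes have a median of -0.20 and the feeder markers -0.12, and at 6 h against 0 h the Wnt targets spread from -0.64 to 0.62 around a median of 0.03.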

How the data were processed

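PolyA RNA-seq counts per gene, as deposited by the authors, covered 6 libraries (2 each at 0, 3 and 6 h). Per the submitters' processing notes, the tools were fastp 0.22.0, HISAT2 2.2.1 and featureCounts 2.0.3 with build GRCm38. For the annotation release, the strand setting and multi-mapping reads, the choice made was not given in the sources used here. Of 55487 gene IDs, 55227 were named through GENCODE M21, which also gave loci and exon lengths. Start-site sequences were RefSeq's, build GRCm38.

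Counts were fitted in edgeR 4.0.16 (R 4.3.3) with TMM scaling, filterByExpr (minimum count 10, leaving 15748 genes) and the quasi-likelihood test over all 6 libraries, with 3 residual degrees of freedom. The spread of each gene was moderated over genes, with a median of 13.5 prior degrees of freedom. P-values were Benjamini-Hochberg adjusted over all tested genes, and a gene was called under 0.05. The fit was checked on simulated counts. CPM and log2 fold changes were computed from the deposited counts.

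Alternatives were other scaling, DESeq2 1.42.0, limma 3.58.1 voom, other filters, 4 libraries per fit, a replicate block, a feeder-marker covariate and leaving out each library. For the pathway lists they were chosen after seeing the data.

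The 10 genes and all lists were chosen with earlier results of these data known. Named were all 10 genes, up to 5 called genes per list by smallest adjusted p, and the 3 nearest profiles of each called gene.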

Additional observations from a re-analysis of the deposited data

Results flagged for a closer look

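The 6 h and 3 h groups, each set against the same 0 h libraries, differed by the direct test of 6 h against 3 h (edgeR quasi-likelihood test, adjusted over all tested genes) for 4 of the 10 genes. The share over all tested genes was 21.4%. Lef1 differed by 0.83 ± 0.06 on the log2 scale (adjusted p = 9.76e-08), with both 6 h libraries above both 3 h libraries. Tcf7 differed by 0.21 (adjusted p = 0.00686) and Rnf43 by 0.69 (adjusted p = 0.0391), also with both 6 h libraries higher. Axin2 differed by -0.18 (adjusted p = 0.0131), with both 6 h libraries lower. Of these 4 differences, that of Lef1 was called in all 15 alternatives, Tcf7 in 12, Axin2 in 11 and Rnf43 in 10.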

How the results depend on the processing

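Over 30 values (10 genes in 3 comparisons) and 15 alternatives, 399 kept direction and side of the threshold, 15 lost and 25 gained a call, and 11 changed sign. At 3 h against 0 h, where none of the 10 genes was called, 3 were called with no low-count filter, 1 with 4 libraries in the fit, 4 with the replicate block, and 0 to 2 when leaving out 1 library; calls over all genes went from 29 to 234, 82, 262 and 4 to 260. At 6 h against 0 h the 6 calls became 5 to 6 when leaving out 1 library. At 6 h against 3 h the 4 calls became 1 with DESeq2 and 1 to 6 when leaving out 1 library. Pathway calls at 6 h against 0 h were 38 and became 23 with DESeq2; at 6 h against 3 h they were 45 and became 21, 22 with the feeder-marker covariate and 25 to 47 when leaving out 1 library. Same-numbered libraries did not deviate together (r = 0.04, 0.04 and -0.02 between times), so the replicate block pairs libraries by number alone. Sign changes, all in uncalled values, were Tcf7 at 3 h (-0.03) and Nkd1 at 3 h (0.10) and from 3 to 6 h (-0.20) with the feeder-marker covariate, and Sp5 at 6 h (0.022) without scaling factors. Leaving out 1 library gave Sp5 at 6 h -0.076 to 0.053 (positive without replicate 1 of 0 h or replicate 2 of 6 h), T from 3 to 6 h -0.262 to 0.066 (positive without replicate 1 of 3 h or replicate 2 of 6 h), and Nkd1 -0.307 to 0.018 at 3 h and -0.272 to 0.049 at 6 h (positive without replicate 1 of 0 h). From 3 to 6 h Nkd1 ran from -0.014 (without replicate 2 of 3 h) to 0.085. The cause was not tested. Depth limits T, Nkd1 and Rnf43, with 28 to 104 reads per library.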
